A study of Mus musculus with 18 samples.

Results

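The catalytic form of a PD-L1-directed Pistol ribozyme, PS473, was compared with its inactive counterpart, M5, after both had been injected into B16F10 melanomas inside the same manganese framework, NKMOF-101-[Mn]. The comparison uses 6 of the 18 tumors sequenced, 3 that received PS473@NKMOF-101-[Mn] and 3 that received M5@NKMOF-101-[Mn], chosen by their treatment labels. B16F10 is a mouse melanoma line, and the cells were grown under the skin of female C57BL/6 mice that carried no engineered allele. Intratumoral injections began on day 6, at a tumor volume near 50 mm3, and were repeated at intervals of 2 days. Tumors were taken 48 h after the last injection. The 6 tumors therefore share the host, the tumor line, the carrier, its manganese and the injections, and differ in the ribozyme. The framework alone (NKMOF-101-[Mn]) and PBS, with 3 tumors each, are given as reference levels. The labels do not state the age of the mice, and the titles of the 3 PS473 samples name the framework as NKMOF-102 while their treatment text and the study give NKMOF-101. Whole tumors were sequenced, so that fewer cells of a type and less RNA per cell cannot be told apart in any value below. Nothing in the labels says that the tumors of a group came from separate experiments, and the p-values measure the spread between tumors only. The fit behind the SEs, intervals and p-values used all 18 tumors. They therefore measure the spread inside all 6 treatment groups of the series, not inside the PS473 and M5 groups alone. Only the permutation test given for Cd274 used just the 6 tumors compared.

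Pistol ribozymes are small RNA enzymes that fold into stems and a pseudoknot and cut an RNA strand at a GU dinucleotide with the help of divalent metal ions. A version that acts in trans pairs with its target through base-pairing arms, cuts it and lets the fragments go. PD-L1, encoded by Cd274, is the ligand on tumor and myeloid cells that engages PD-1 on T cells and restrains them, and its transcription is raised by interferon signaling through JAK and STAT proteins. Manganese ions can serve such ribozymes as a cofactor and can also sensitize cGAS, the enzyme that reads cytosolic DNA and signals through STING to type I interferon. Both groups received manganese, so that the metal is shared and the ribozyme sequence is not.

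The sequences listed for the molecules show how little separates them, and capitals mark the bases at which PS473 and M5 differ.
PS473: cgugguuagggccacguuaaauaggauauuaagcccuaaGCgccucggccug
M5: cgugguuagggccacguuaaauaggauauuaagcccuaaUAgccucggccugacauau
Over the 52 bases they share, PS473 and M5 differ at 2, G40U and C41A, with positions counted from the 5′ end, the PS473 base first and the M5 base last. M5 ends with 6 further bases, so that its 3′ arm pairs with 16 bases of the target and that of the listed PS473 with 10. The target of the arms is shown next because every claim of specificity rests on it, and capitals mark the GU at which the RNA is cut.
target: auaugucaggccgaggGUuauc
This stretch of 22 bases lies on the plus strand of chromosome 19 at chr19:29380366-29380387 (mouse build GRCm38, GENCODE M21). It is coding sequence in exon 4 of the 7 exons of Cd274, and the G of the GU, at position 29380382, is base 473 of the 873-base coding sequence and base 2 of codon 158. The study used a form of PS473 with the longer arm under the same short name, and the listing of that form reads as follows, with the second copy of a stretch in capitals.
PS473_16: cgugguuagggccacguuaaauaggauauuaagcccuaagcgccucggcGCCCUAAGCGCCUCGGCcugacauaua
The 17 capital bases repeat the 17 bases before them, in a listing of 76 bases. Whether the injected RNA carried this repeat was not tested. The listing also runs past the last base of the 3′ arm of M5, so that the listed arms differ in length. The study states that M5 has the same recognition domain as the longer form. On that statement, the bases at positions 40 and 41 are the difference that the contrast was designed around. Sites like the target were then searched for elsewhere: of 141767 annotated mouse transcripts, those of Cd274 were the only full match, 0 genes had a site with 1 to 4 mismatches when the GU was kept, and 10 genes had a best site with 5.

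The expression values are FPKM, fragment counts scaled to gene length and to the size of each library, for 41079 genes. Of these, 12357 averaged 1 FPKM or more across the 18 tumors and were tested. The fragments assigned to genes, worked out from the smallest steps in each column, ranged from 17210000 to 20110000 in the M5 tumors and from 20440000 to 23650000 in the PS473 tumors, so that every PS473 tumor was sequenced more deeply than every M5 tumor. The tumors carried the label they were given: all 20 melanocyte and melanoma genes on the list were tested, and Dct, an enzyme of melanin synthesis, read 3180, 2710 and 3420 FPKM with M5 and 2900, 2760 and 2720 FPKM with PS473. Skin was present in some tumors and nearly absent from others. Krt14, a keratin of basal epidermis, was listed at 0, 0.272 and 134 FPKM with M5 and at 0.162, 75.7 and 4.07 FPKM with PS473. The mean log2(FPKM + 1) of the 26 skin genes tested ran from 0.298 to 3.77 across the M5 tumors and from 0.288 to 3.42 across the PS473 tumors, and so stood high in tumor 3 of M5 and tumor 2 of PS473. Blood content differed as widely. Hba-a1, an alpha globin, read 265, 2520 and 1470 FPKM with M5 and 2770, 15.4 and 1540 FPKM with PS473, with the lowest value in PS473 tumor 2. PS473 tumor 3 stood apart in mitochondrial and nuclear noncoding RNA. The mitochondrial rRNA mt-Rnr2 read 321 FPKM there against 33.1 to 46.3 FPKM in the other 5, and the nuclear RNA Malat1 read 10.1 FPKM there against 59.6 to 118 FPKM. Values without 1 of these tumors are given beside several results below.

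Across the transcriptome, PS473 and M5 tumors were close to each other and no gene passed the test. With limma on log2(FPKM + 1) and Benjamini-Hochberg adjustment over all 12357 genes, 0 genes (0% of those tested) reached an adjusted p under 0.05 with a 2-fold difference, and the smallest adjusted p was 1. An unadjusted p under 0.05 was reached by 73 genes (0.591%), 33 higher with PS473 (0.267%) and 40 lower (0.324%). Of the 73, 1 gene was at least 2-fold higher in FPKM + 1 and 3 were at least 2-fold lower. The 73 genes are a smaller share than the 0.05 of all genes expected under that threshold where no gene differs. The 3 PS473 tumors all lay above the 3 M5 tumors in 287 genes (2.32%) and all below them in 267 (2.16%). The log2 fold change, always given as PS473 minus M5, was above 0 in 46.6% of genes and below 0 in 53.3%. Its median was -0.01 and the median of its absolute value 0.07.

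A p that misses the threshold does not show that the molecules acted alike, and the intervals say how much room the data leave. The 95% interval of the log2 fold change of FPKM + 1 lay within a 2-fold difference in both directions for 11189 genes (90.5%). It lay within a 1.5-fold difference for 9634 genes (78.0%). For the 1168 genes outside the 2-fold limit, Cd274 among them, the interval reached 2-fold in at least 1 direction. For weakly expressed genes the added 1 shrinks the fold and its interval, so these shares do not bound their fold in FPKM. The spread was unequal: the median SD of a gene over the 3 tumors was 0.181 with PS473 and 0.107 with M5 on the log2(FPKM + 1) scale. Pairs of PS473 tumors correlated across the tested genes with r of 0.955 to 0.972, pairs of M5 tumors with 0.972 to 0.986, and pairs of 1 PS473 and 1 M5 tumor with 0.964 to 0.989. These r are across genes, which are not replicates. PS473 tumor 1 was as close to M5 tumors 1 and 2 (0.989 and 0.988) as any 2 tumors of a group were to each other.

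**Figure D1:**
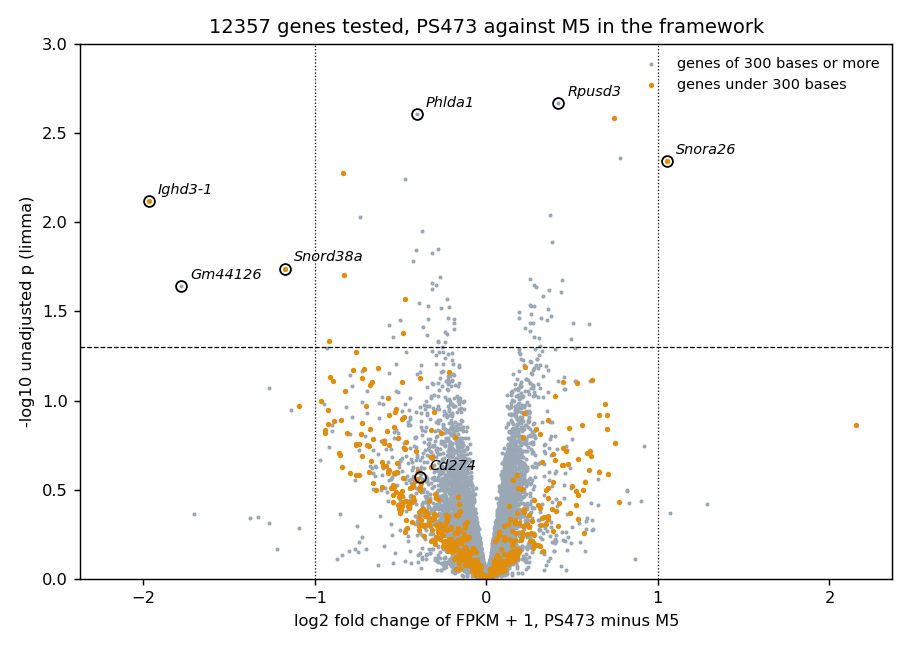
Each point is a gene among the 12357 tested, with the log2 fold change of FPKM + 1 (PS473 minus M5) on the x axis and the -log10 of the unadjusted p of limma on the y axis, which runs from 0 at the bottom; the dashed line marks the threshold of 0.05, the dotted lines mark 2-fold, and orange points are genes under 300 bases. Past both limits lie 4 genes, Snora26 on the right and Ighd3-1, Gm44126 and Snord38a on the left, and 3 of them are orange; Cd274 lies well below the dashed line.

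Cd274, the transcript that PS473 was built to cut, did not differ between the ribozymes beyond the spread of the tumors. It read 21.8, 21.0 and 28.2 FPKM with M5 and 17.0, 32.9 and 9.74 FPKM with PS473, or 23.7 ± 3.94 FPKM (SD, n = 3) against 19.9 ± 11.9 FPKM (SD, n = 3). PS473 tumors 1 and 3 lay below every M5 tumor and PS473 tumor 2 above every one, so that the groups overlapped. The framework alone gave 14.9 ± 0.945 FPKM (SD, n = 3) and PBS 16.5 ± 4.64 FPKM (SD, n = 3). The log2 fold change was -0.39 (SE 0.34, 95% interval -1.11 to 0.33, adjusted p = 1 by limma). A two-sided exact permutation test over the 6 tumors gave p = 0.5, where 0.1 is the smallest value that 3 against 3 allows. The difference was -0.82 without PS473 tumor 2 and 0.01 without PS473 tumor 3. PS473 tumor 2 was also the tumor with the highest levels of interferon-stimulated genes described below, and PS473 tumor 3 the one with the lowest. The part of interferon level in the Cd274 values was not tested. The other members of the axis were scarce: Pdcd1, which encodes PD-1, read 0.586, 0.759 and 0.640 FPKM with M5 and 0.525, 0.800 and 0.392 FPKM with PS473, and Pdcd1lg2, the gene of PD-L2, did not exceed 0.146 FPKM in any of the 6. Only 1 of the 5 genes of the axis that the table holds, Cd274 itself, was abundant enough to be tested.

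The genes with the closest matches to the target elsewhere showed no difference either. Of the 10 genes with a best site of 5 mismatches, 7 were measured and 4 tested, their log2 fold changes ran from -0.04 to 0.13, and 0 of the 4 reached an unadjusted p under 0.05. A match in sequence is a description and does not say that the ribozyme bound there.

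Genes upstream of PD-L1 in the interferon pathway did not pass the test and had a wide spread inside the PS473 group. All 19 interferon receptors and JAK-STAT regulators were tested, 4 higher and 15 lower with PS473, with a median log2 fold change of -0.05 and 0 at an unadjusted p under 0.05. PS473 tumor 2 held the highest value in 12 of the 19 and PS473 tumor 3 the lowest in 13. Over all genes tested, tumor 2 was the highest in 25.2% and tumor 3 the lowest in 38.5%. The median was -0.23 without tumor 2 and 0.05 without tumor 3. Irf1, through which interferon gamma raises Cd274, read 19.2, 28.0 and 22.6 FPKM with M5 and 20.6, 40.9 and 12.7 FPKM with PS473. The M5 tumors lay inside the range of the PS473 tumors, whose tumor 2 was the highest and tumor 3 the lowest of the 6. The receptor genes Ifnar1 (10.0, 8.68 and 10.1 FPKM against 9.76, 9.95 and 8.81 FPKM) and Ifngr1 (8.10, 9.72 and 8.99 FPKM against 7.76, 11.1 and 7.02 FPKM) overlapped between the groups. The smallest p among the 15 belonged to Stat3, which carries signals of the interleukin-6 family. It read 38.0, 40.8 and 47.9 FPKM with M5 and 35.5, 37.2 and 31.6 FPKM with PS473, without overlap, at a log2 fold change of -0.27 (SE 0.23). Irf7, the regulator that amplifies type I interferon, had the smallest p among the 4, at 12.2, 9.16 and 13.4 FPKM against 8.61, 34.8 and 10.4 FPKM. Its log2 fold change of 0.34 (SE 0.52) was -0.25 without PS473 tumor 2.

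Interferon-stimulated genes had a median above 0 with PS473, and the sign of that median rested on 1 tumor. Of 69 measured, 63 were tested, and 50 had a log2 fold change above 0 and 13 below, with a median of 0.11 and 0 genes at an unadjusted p under 0.05. In 0 of the 63 did the groups separate. PS473 tumor 2 held the highest value of the 6 tumors in 60 of these genes, against 25.2% of all genes tested, and PS473 tumor 3 the lowest in 48, against 38.5% of all genes. The mean log2(FPKM + 1) of the list was 3.65, 3.68 and 3.64 with M5 and 3.45, 4.61 and 3.15 with PS473. The M5 tumors thus lay together between a higher and 2 lower PS473 tumors. The framework alone spanned 2.99 to 3.52 and PBS 3.05 to 3.46. Without PS473 tumor 2 the median log2 fold change of the list became -0.34, and without PS473 tumor 3 it became 0.40. Isg15, a ubiquitin-like antiviral protein, read 35.4, 31.7 and 32.2 FPKM with M5 and 29.4, 77.2 and 27.0 FPKM with PS473. Ifit1, which binds foreign RNA ends, read 9.38, 9.66 and 8.94 FPKM against 8.06, 25.1 and 6.12 FPKM, and Rsad2, the antiviral enzyme viperin, 19.0, 21.7 and 21.0 FPKM against 16.3, 40.5 and 11.9 FPKM. In all of them PS473 tumors 1 and 3 lay below the M5 tumors and PS473 tumor 2 above. The smallest p of the genes above 0 was that of Oas1a, a sensor of double-stranded RNA, at a log2 fold change of 0.27 (SE 0.26). For the genes below 0 it was Ifi211, a DNA-binding family member, which read 5.15, 4.28 and 5.36 FPKM against 2.28, 8.87 and 2.40 FPKM, at -0.30 (SE 0.43).

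The sensors of RNA and DNA did not differ beyond the spread between tumors either. Among RNA sensors and adaptors, 14 of 17 were tested, 10 were above 0 and 4 below, the median was 0.09, and 0 reached an unadjusted p under 0.05. Rigi, the cytosolic receptor RIG-I, read 7.74, 6.07 and 6.55 FPKM with M5 and 5.95, 12.5 and 5.55 FPKM with PS473. Ifih1, the receptor MDA5 for long double-stranded RNA, had the smallest p above 0, with 4.59, 4.51 and 4.57 FPKM against 4.63, 9.41 and 4.02 FPKM, and Unc93b1, the chaperone of endosomal Toll-like receptors, the smallest below it (17.8, 22.5 and 18.1 FPKM against 14.0, 24.1 and 12.0 FPKM). Without PS473 tumor 2 the median of this list was -0.13, and without PS473 tumor 3 it was 0.23. Tlr7, an endosomal receptor of single-stranded RNA, stayed at or under 0.439 FPKM in the 6 tumors. In the cGAS-STING pathway 9 of 12 genes were tested, 2 above 0 and 7 below, with a median of -0.02 that became -0.09 without PS473 tumor 2 and 0.05 without PS473 tumor 3. Cgas read 5.84, 6.07 and 5.48 FPKM with M5 and 6.36, 7.90 and 4.76 FPKM with PS473. Sting1, the adaptor that cGAS activates, read 11.5, 10.5 and 12.0 FPKM against 9.43, 12.9 and 8.64 FPKM, and the kinase gene Tbk1 10.9, 14.0 and 11.9 FPKM against 12.4, 13.5 and 10.4 FPKM. The groups overlapped for each of them. The interval for Cgas allows a log2 fold change from -0.24 to 0.42, and that for Sting1 one from -0.41 to 0.14, both short of 2-fold. The smallest p below 0 was that of Ikbke, a kinase related to Tbk1, at -0.22 (SE 0.12). Ifnb1, the gene of interferon beta, was at or under 0.210 FPKM in every one of the 6 tumors and was not tested.

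**Figure D2:**
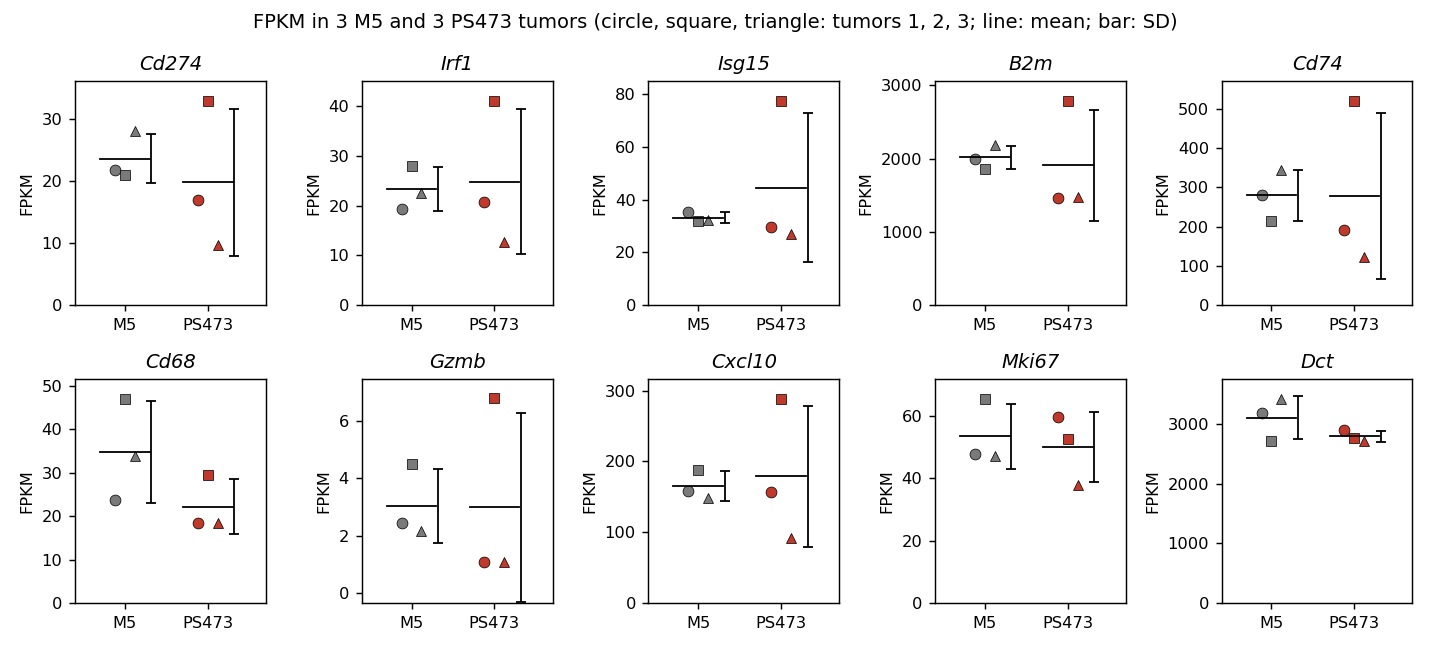
FPKM (y axis) of 10 genes in the 3 M5 and the 3 PS473 tumors (x axis), with circles, squares and triangles for tumors 1, 2 and 3, a horizontal line for the mean and a bar for the SD. In Cd274, Irf1, Isg15, B2m, Cd74, Gzmb and Cxcl10 the highest value is that of PS473 tumor 2 (for Isg15 77.2 FPKM against 27.0 to 35.4 in the rest), while Dct and Mki67 show no such point.

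Antigen presentation followed the same pattern. MHC class I molecules show peptides from inside a cell to CD8 T cells, and class II molecules show ingested peptides to CD4 T cells. Of the 17 class I genes tested, 2 were above 0 and 15 below with PS473, at a median log2 fold change of -0.09, and 0 reached an unadjusted p under 0.05. B2m, the light chain of class I, read 2000, 1860 and 2180 FPKM with M5 and 1460, 2780 and 1480 FPKM with PS473. The heavy chain H2-K1 read 69.3, 69.4 and 77.4 FPKM against 50.9, 96.7 and 37.5 FPKM, and the peptide transporter Tap1 54.0, 64.3 and 56.9 FPKM against 53.6, 95.2 and 31.5 FPKM. PS473 tumor 2 had the highest value of the 6 in 14 of the 17 genes, against 25.2% of all genes tested. PS473 tumor 3 had the lowest in 13, against 38.5% of all genes. The member with the smallest p below 0 was Canx, a chaperone that helps class I chains fold, at -0.12 (SE 0.09), and the member with the smallest p above 0 was Psmb10, a subunit of the immunoproteasome, at 0.24 (SE 0.31). For class II all 9 genes tested were below 0, with a median of -0.17, and 0 reached an unadjusted p under 0.05. Cd74, the invariant chain, read 281, 215 and 344 FPKM with M5 and 190, 518 and 123 FPKM with PS473. Ciita, the master regulator of class II, read 1.66, 2.23 and 2.44 FPKM against 1.91, 4.43 and 0.825 FPKM. Ctss, the protease that trims the invariant chain, had the smallest p at -0.45 (SE 0.46). Without PS473 tumor 2 the medians were -0.45 for class I and -0.62 for class II, and without PS473 tumor 3 they were 0.16 and 0.17, so that the sign of both depended on which PS473 tumors were counted.

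Lymphocyte transcripts were too scarce in these tumors for most of them to be tested. Of 25 T cell and cytotoxic genes, 8 passed the expression filter, 3 above 0 and 5 below, with a median of -0.02 and 0 at an unadjusted p under 0.05. Cd8a, the coreceptor of cytotoxic T cells, read 0.585, 1.16 and 0.637 FPKM with M5 and 0.574, 2.35 and 0.547 FPKM with PS473. Cd3e stayed at or under 0.332 FPKM except in PS473 tumor 2, where it was 1.19 FPKM. Gzmb, the protease granzyme B, read 2.44, 4.52 and 2.15 FPKM with M5 and 1.06, 6.81 and 1.08 FPKM with PS473. Prf1, the pore protein perforin, read 0.714, 1.21 and 0.802 FPKM against 0.430, 1.44 and 0.238 FPKM, and Ifng 0.216, 0.863 and 0.271 FPKM against 0.175, 1.38 and 0.0809 FPKM. In all of these PS473 tumor 2 was the highest of the 6. Among the tested genes the smallest p above 0 was that of Lck, the kinase at the T cell receptor, at 0.22 (SE 0.19), and the smallest below that of Cd3g at -0.23 (SE 0.27). The median of the list was -0.42 without PS473 tumor 2 and 0.16 without PS473 tumor 3. None of the 9 NK cell genes could be tested, and Ncr1, which marks NK cells, was at or under 0.211 FPKM. Of 9 B and plasma cell genes 3 were tested, all below 0, at a median of -0.28 (-0.66 without PS473 tumor 2), and PS473 tumor 1 held the lowest value in all 3. With a pseudocount of 0.1 the median was -1.04, so that its size depended on the pseudocount. In 1 of the 3 genes the groups did not overlap, where 2.16% of all genes lay lower with PS473 without overlap. Checkpoint genes other than the PD-1 axis had 11 of 20 members tested, 2 above 0 and 9 below (median -0.16, and -0.31 without PS473 tumor 2), and 0 at an unadjusted p under 0.05. The smallest p above 0 was that of Lgals9, a galectin that binds TIM-3, with 79.1, 56.6 and 75.8 FPKM against 64.0, 108 and 80.8 FPKM, and the smallest below that of Vsir, which encodes VISTA, with 1.07, 2.43 and 1.65 FPKM against 0.778, 1.45 and 0.815 FPKM.

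Macrophage transcripts leaned lower with PS473 and did not pass the test. Of 25 macrophage and monocyte genes 18 were tested, with 1 above 0 and 17 below and a median log2 fold change of -0.45, against -0.01 over all genes. In 0 of the 18 did the groups separate and 0 reached an unadjusted p under 0.05. Cd68, a lysosomal glycoprotein of phagocytes, had the smallest p below 0: it read 23.6, 47.0 and 33.9 FPKM with M5 and 18.5, 29.5 and 18.5 FPKM with PS473, at -0.61 (SE 0.34). Adgre1, the F4/80 antigen, read 3.34, 6.96 and 5.76 FPKM against 2.89, 4.35 and 3.22 FPKM, and Csf1r, the receptor on which macrophages depend, 4.28, 8.09 and 6.89 FPKM against 4.38, 5.81 and 3.22 FPKM. C1qa, a complement component that macrophages make, read 39.1, 76.6 and 54.0 FPKM against 24.6, 55.2 and 36.6 FPKM. In each the lowest M5 tumor, tumor 1, lay inside the PS473 range. The framework alone had a higher list mean, 3.65 to 4.37, than either (3.38 to 3.95 with M5 and 3.08 to 3.77 with PS473), with overlap. Arg1, an enzyme of the alternative activation state, read 2.70, 9.20 and 19.9 FPKM against 3.82, 3.83 and 4.80 FPKM. The member above 0 was Ly6c2, which marks inflammatory monocytes, at 2.08, 1.19 and 1.33 FPKM against 0.876, 7.41 and 1.77 FPKM. Leaving out single tumors moved the median between -0.63 and -0.27. Ly6g, the neutrophil antigen, was listed at 0 in all 6 tumors, and the neutrophil calgranulin genes S100a8 and S100a9 were high only in M5 tumor 3, at 10.8 and 7.84 FPKM, against values at or under 1.52 FPKM in the other 5. That tumor also had the highest skin content among the M5 tumors, and keratinocytes can express these genes as well. Whether skin contributed was not tested.

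Soluble mediators did not separate the ribozymes. Of 26 chemokines 17 were tested, 8 above 0 and 9 below, with a median of -0.03 (-0.38 without PS473 tumor 2 and 0.06 without PS473 tumor 3), and 0 reached an unadjusted p under 0.05. Cxcl10, which draws CXCR3-bearing T cells, was abundant at 158, 189 and 149 FPKM with M5 and 157, 288 and 92.3 FPKM with PS473. Cxcl9, with the same receptor, read 4.76, 13.2 and 11.1 FPKM against 7.13, 15.9 and 6.21 FPKM, and Ccl5, made by T cells and by interferon-treated cells, 11.3, 9.86 and 13.0 FPKM against 8.49, 36.0 and 8.46 FPKM. Ccl4, a macrophage and T cell chemokine, had the smallest p below 0, at 3.21, 8.63 and 2.83 FPKM against 1.12, 5.73 and 1.85 FPKM. Ccl21a, a lymphoid stromal chemokine whose near-identical copies can share fragments, had the smallest p above 0 and is uncertain for that reason. Of 30 cytokines and receptors 14 were tested, 2 above 0 and 12 below, at a median of -0.17 that became -0.39 without PS473 tumor 2 and -0.05 without PS473 tumor 3. Il6, Tnf and Il1b did not exceed 1.22 FPKM in any of the 6 tumors. The smallest p above 0 was that of Il18, a cytokine released by inflammasomes, at 2.41, 1.84 and 1.61 FPKM against 1.74, 3.70 and 1.69 FPKM, and the smallest below that of Il17ra, the receptor of interleukin-17, at 1.88, 2.80 and 2.33 FPKM against 1.67, 2.67 and 1.07 FPKM. Of 13 NF-kB and TNF response genes tested, 3 were above 0 and 10 below, at a median of -0.17 (-0.32 without PS473 tumor 2 and -0.02 without M5 tumor 2), and Nfkbia, the inhibitor that NF-kB induces, read 10.4, 16.0 and 12.2 FPKM against 9.11, 13.8 and 11.0 FPKM. Junb, a subunit of AP-1, had the smallest p of that list below 0, at 24.2 to 43.7 FPKM against 23.2 to 29.4 FPKM, and Nfkb2 the smallest above, at 3.49, 3.08 and 2.79 FPKM against 3.22, 2.87 and 3.91 FPKM. In both lists 0 genes reached an unadjusted p under 0.05.

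**Figure D3:**
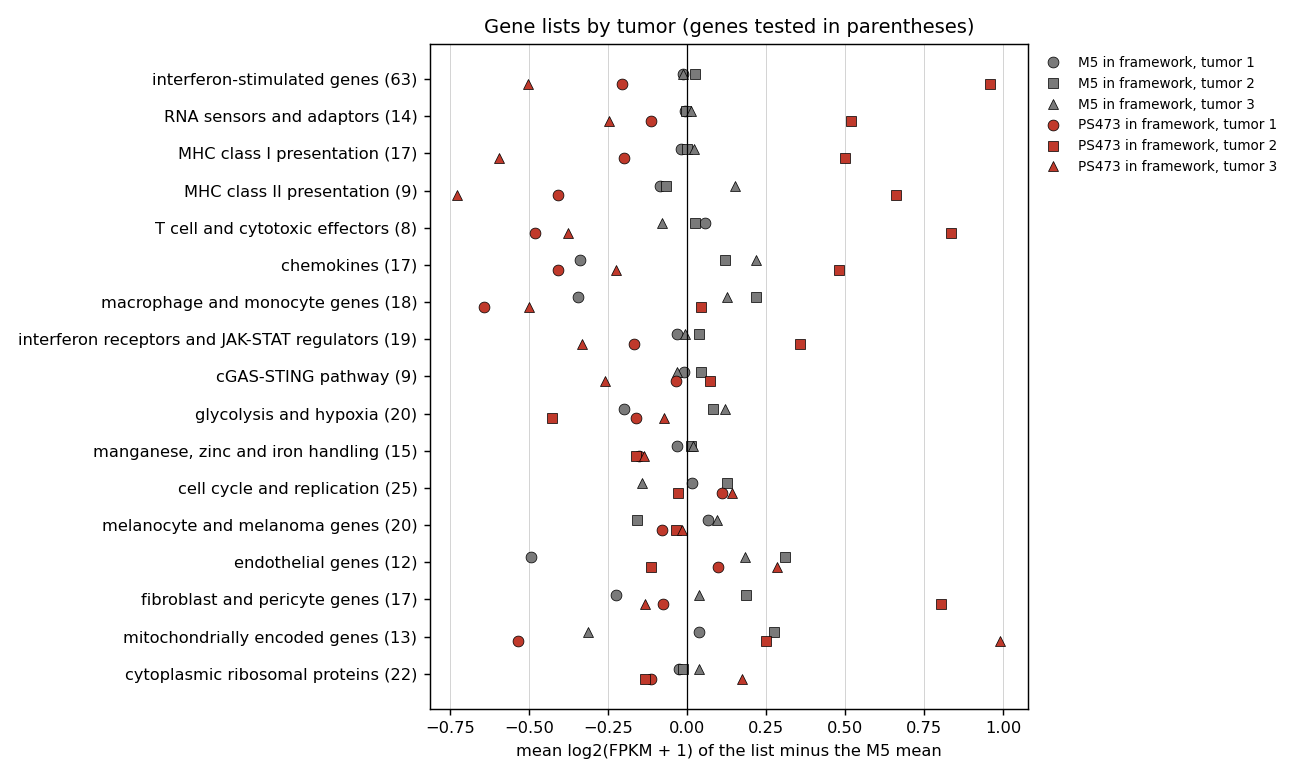
Mean log2(FPKM + 1) of the tested genes of 17 lists in each tumor, as a difference from the mean of the 3 M5 tumors (x axis), with gray symbols for M5, red for PS473, and circles, squares and triangles for tumors 1, 2 and 3. For interferon-stimulated genes, RNA sensors, both MHC classes, T cell genes and JAK-STAT regulators PS473 tumor 2 lies to the right and tumors 1 and 3 to the left of the M5 tumors (interferon-stimulated genes 4.61 against 3.45 and 3.15). For macrophage genes PS473 tumor 2, at 3.77, lies inside the M5 range of 3.38 to 3.95, while for manganese, zinc and iron handling the 3 PS473 tumors lie together at 5.44 to 5.46, left of the M5 tumors at 5.57 to 5.62.

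Metal handling was 1 of 2 lists, of 36 with a tested gene, whose mean level separated all PS473 tumors from all M5 tumors. The other, amino acid synthesis and uptake, was written after the values were seen. Among single genes the groups did not overlap in 4.48% of those tested, and no test was run on the separation of lists. Where nothing differs, 3 tumors lie wholly above or wholly below 3 others with a probability of 0.1. The 2 of 36 lists are a smaller share than that. The metal handling list holds metallothioneins, which bind zinc and other metals, and transporters of manganese, zinc and iron. Of 18 genes 15 were tested, 1 above 0 and 14 below, with a median log2 fold change of -0.07. The mean of the list was 5.57, 5.61 and 5.62 with M5 and 5.45, 5.44 and 5.46 with PS473, a difference of -0.15 in the mean. The framework alone lay between the groups at 5.52 to 5.56, and PBS at 5.46 to 5.54 reached down to the PS473 level. Slc30a1, which exports zinc from the cell, read 3.72, 3.84 and 3.66 FPKM with M5 and 2.86, 3.45 and 2.02 FPKM with PS473, at a log2 fold change of -0.35 (SE 0.16) and an unadjusted p of 0.0427 (adjusted p = 1). Its level was 3.31 FPKM on average in the framework alone and 2.56 FPKM in PBS. The metallothionein gene Mt1 read 226, 268 and 232 FPKM against 173, 129 and 248 FPKM, and Mt2 321, 443 and 362 FPKM against 264, 222 and 326 FPKM, both with PS473 tumor 3 inside the M5 range. Slc39a14, a manganese and zinc importer, read 7.55, 9.00 and 8.20 FPKM against 9.35, 8.56 and 6.33 FPKM. Slc30a10, the cellular manganese exporter, was listed at 0 in all 6 tumors, and Slc39a8 did not exceed 0.144 FPKM. In the redox list 3 of 16 genes were above 0 and 13 below, at a median of -0.04, and the heme oxygenase gene Hmox1 read 51.2, 93.5 and 117 FPKM against 38.3, 47.7 and 54.1 FPKM, at -0.82 (SE 0.48) with M5 tumor 1 inside the PS473 range. Cat, which encodes catalase, had the smallest p above 0 at 33.9, 31.9 and 35.8 FPKM against 33.2, 33.4 and 37.6 FPKM.

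Glycolysis and hypoxia genes had a median below 0 with PS473, and no member passed adjustment. All 20 genes of glycolysis and hypoxia were tested, 19 below 0 and 1 above, with a median log2 fold change of -0.23. An unadjusted p under 0.05 was reached by 2 of them, both lower, where the share over all genes was 0.324%. Adm, the vasodilator peptide adrenomedullin, read 27.2, 35.3 and 32.0 FPKM with M5 and 22.3, 20.3 and 19.9 FPKM with PS473, at -0.57 (SE 0.25). P4ha1, a collagen prolyl hydroxylase, read 22.4, 22.3 and 23.1 FPKM against 20.5, 17.6 and 17.7 FPKM, at -0.27 (SE 0.10). The glucose transporter gene Slc2a1 also separated the groups, at 81.8, 99.3 and 112 FPKM against 79.3, 58.3 and 72.3 FPKM, and did not reach the unadjusted threshold. Vegfa, the vascular growth factor, read 48.1, 69.1 and 58.7 FPKM against 59.1, 36.6 and 29.5 FPKM, and the carbonic anhydrase Car9 43.4, 70.6 and 57.3 FPKM against 53.4, 42.5 and 44.4 FPKM. The gene above 0 was Gapdh, a glycolytic enzyme with many processed pseudogenes, at 33.6, 58.5 and 44.0 FPKM against 47.7, 56.0 and 86.1 FPKM. PS473 tumor 2 held the lowest value of the 6 in 15 of the 20 genes, against 11.8% of all genes tested. Without it the median was -0.12. That tumor also had the lowest globin level, and its list mean of 6.02 lay below those of all M5 tumors (6.25 to 6.57), of the framework alone (6.07 to 6.52) and of PBS (6.15 to 6.72). The other PS473 tumors, at 6.29 and 6.38, lay inside each of these ranges.

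Melanocyte, cell cycle, p53, cell death and immediate early genes, read in whole tumors, did not pass the test. Of 20 melanocyte and melanoma genes 6 were above 0 and 14 below, at a median of -0.05, with 0 at an unadjusted p under 0.05. Mitf, the lineage regulator, read 38.5, 37.5 and 34.6 FPKM with M5 and 38.1, 41.4 and 35.8 FPKM with PS473. Tyr, the enzyme that starts melanin synthesis, read 101, 78.1 and 117 FPKM against 74.6, 103 and 92.0 FPKM. Mlph, which tethers pigment granules to actin motors, had the smallest p above 0, at 132, 136 and 133 FPKM against 154, 157 and 140 FPKM without overlap and a log2 fold change of 0.17 (SE 0.17). In the cell cycle list 22 of 25 genes were above 0 and 3 below, at a median of 0.07. Mki67, a marker of dividing cells, read 47.6, 65.4 and 47.2 FPKM against 59.7, 52.7 and 37.9 FPKM, and Top2a, needed to separate chromosomes, 96.1, 116 and 90.9 FPKM against 105, 102 and 96.6 FPKM. The smallest p was that of Mcm7, part of the replication helicase, at 0.23 (SE 0.14). M5 tumor 3 held the lowest value in 19 of the 25 genes, and without it the median was -0.02. Among p53 targets 9 of 12 were above 0, at a median of 0.08. Trp53 itself read 21.0, 20.4 and 20.6 FPKM against 22.0, 24.6 and 24.9 FPKM, at 0.20 (SE 0.12), and Cdkn1a, the cell cycle inhibitor p21, 53.2, 56.7 and 47.3 FPKM against 44.9, 51.8 and 67.0 FPKM. Gdf15, a secreted stress factor, had the smallest p below 0, at 2.18 to 4.07 FPKM against 1.45 to 2.85 FPKM. Of 17 apoptosis and lytic cell death genes 7 were above 0 and 10 below, at a median of -0.03. Gsdmd, whose fragment opens pores in pyroptosis, read 3.94, 3.81 and 4.16 FPKM against 3.29, 5.71 and 2.25 FPKM. The smallest p below 0 was that of Bcl2l1, a survival protein, at 6.97, 7.02 and 6.03 FPKM against 5.33, 6.09 and 5.75 FPKM, and the smallest above 0 that of Il18. Of 14 immediate early genes 2 were above 0 and 12 below, at a median of -0.16. M5 tumor 2 held the highest value in 11 of the 14, and without it the median was 0.10. Atf3 separated the groups at 9.23, 15.5 and 11.2 FPKM against 7.78, 7.88 and 7.75 FPKM. The groups did not overlap in 2 of the 20 melanocyte genes and 3 of the 12 p53 targets, all higher with PS473, against 2.32% of all genes. They did not overlap in 2 of the 14 immediate early genes, both lower, against 2.16%. In the cell cycle and cell death lists no gene separated the groups. No gene of the cell cycle, p53, cell death or immediate early lists reached an unadjusted p under 0.05.

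The 4 genes that were at least 2-fold apart in FPKM + 1 at an unadjusted p under 0.05 rested mostly on very few fragments. Snora26, a small nucleolar RNA of 121 bases, was the 1 that was higher, at 0.480, 1.95 and 0.417 FPKM with M5 and 2.10, 4.72 and 2.12 FPKM with PS473, which stand for 1 to 4.75 fragments against 5.25 to 12 fragments. Its log2 fold change was 1.05 (SE 0.31, adjusted p = 1). The libraries were enriched for poly(A) RNA, a tail that mature small nucleolar RNAs lack. Snord38a, another of 59 bases, read 2.46, 2.95 and 2.78 FPKM with M5 and 0.717, 1.61 and 0 FPKM with PS473, or 2.5 to 3.5 fragments against 0 to 2. Ighd3-1, an antibody diversity segment of 17 bases, read 5.13, 2.93 and 1.49 FPKM with M5 and was listed at 0 in the 3 PS473 tumors, and the M5 values stand for 0.5 to 1.5 fragments. No fold is given for it. Gm44126, a predicted gene of 677 bases, was the only 1 of the 4 with more than a few fragments. It read 7.64, 7.53 and 16.4 FPKM with M5 and 1.75, 2.11 and 2.71 FPKM with PS473, at 89 to 220 fragments against 28 to 37.5, and a log2 fold change of -1.78 (SE 0.70, adjusted p = 1). PBS tumors averaged 7.29 ± 7.16 FPKM (SD, n = 3) and tumors with the framework alone 4.64 ± 2.66 FPKM (SD, n = 3), and single PBS tumors ran from 2.56 to 15.5 FPKM. Genes under 300 bases made up 514 of the genes tested and 9 of the 73.

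The other genes among the 73 differed by less than 2-fold in FPKM + 1. The added 1 understates the fold in FPKM of weakly expressed genes, Gm7008 below among them. The genes named here were chosen after their values were seen, and none passed adjustment. Rpusd3, a mitochondrial pseudouridine synthase, had the smallest p of all, 0.00214. It read 3.86, 4.61 and 3.52 FPKM with M5 and 5.43, 5.44 and 6.14 FPKM with PS473, at 0.42 (SE 0.11), against 5.36 FPKM on average with the framework alone and 5.81 FPKM with PBS. Phlda1, a protein linked to growth arrest, followed at 169, 189 and 163 FPKM against 132, 128 and 133 FPKM, at -0.41 (SE 0.11), with 137 FPKM in the framework alone and 145 FPKM in PBS. In both the PS473 level was the nearer to the framework alone. Mir698, a microRNA gene of 149 bases, read 1.95, 3.00 and 3.13 FPKM against 5.23, 3.78 and 6.70 FPKM, at 0.74 (SE 0.21). Gm7008, a predicted gene of 401 bases, read 0.797, 0.868 and 0.818 FPKM against 1.74, 2.25 and 2.44 FPKM, at 0.78 (SE 0.23), and at 1.26 with a pseudocount of 0.1. Ulbp1, a stress ligand of the NK receptor NKG2D, read 1.64, 2.03 and 1.35 FPKM against 1.26, 0.843 and 0.674 FPKM, at -0.48 (SE 0.15). Cd44, the hyaluronan receptor, read 118, 124 and 129 FPKM against 108, 112 and 96.1 FPKM, at -0.23 (SE 0.09). Rnaset2b, a lysosomal ribonuclease, read 33.4, 44.5 and 35.2 FPKM against 19.7, 21.4 and 25.4 FPKM, at -0.74 (SE 0.25). Its near-identical neighbor Rnaset2a can share fragments with it, and its value is uncertain for that reason.

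Among the 33 genes that were higher, several belong to the charging of tRNAs and the making of amino acids. The lists used to describe them were written after that was seen, so their counts describe the genes and carry no test. All 20 cytosolic aminoacyl-tRNA synthetases, the enzymes that load each tRNA with its amino acid, were above 0, at a median log2 fold change of 0.16, where 46.6% of all genes were above 0. Of these, 5 had an unadjusted p under 0.05, against a share of 0.267% over all genes, and in 4 the groups did not overlap, against 2.32%. Cars1, for cysteine, read 13.2, 15.4 and 14.3 FPKM with M5 and 21.7, 15.5 and 19.5 FPKM with PS473, at 0.37 (SE 0.12). Tars1, for threonine, read 41.7, 38.0 and 37.6 FPKM against 47.7, 42.4 and 50.4 FPKM, at 0.25 (SE 0.10). Gars1, Lars1 and Nars1, for glycine, leucine and asparagine, were at 0.28, 0.27 and 0.26. Of 20 genes of amino acid synthesis and uptake that were tested, 18 were above 0 and 2 below, at a median of 0.26. Asns, which makes asparagine, read 38.7, 37.7 and 42.3 FPKM against 55.9, 41.0 and 67.9 FPKM, at 0.44 (SE 0.17). Psat1 and Psph, consecutive enzymes of serine synthesis, were at 0.36 and 0.37, Aldh18a1, of proline synthesis, at 0.35, and the glycine transporter gene Slc6a9 at 0.38. For Slc6a9 all PS473 tumors lay above M5, at 2.44, 2.91 and 2.34 FPKM with M5 and 4.16, 3.38 and 3.41 FPKM with PS473. The mean of the synthetases was 5.38, 5.37 and 5.37 with M5 and 5.59, 5.37 and 5.68 with PS473, so that PS473 tumor 2 lay inside the M5 range and tumors 1 and 3 above it. The mean of the amino acid genes was 4.34, 4.32 and 4.35 with M5 and 4.69, 4.38 and 4.65 with PS473, with tumor 2 again the lowest of the PS473 tumors. For the synthetases the framework alone (5.43 to 5.62) and PBS (5.40 to 5.49) lay above the M5 tumors too. The same held for the amino acid genes, with the framework alone at 4.475 to 4.773 and PBS at 4.521 to 4.597. Both of these ranges overlapped that of the PS473 tumors, so that the M5 tumors were the low group in this list. Many of these genes are targets of Atf4, the transcription factor of the integrated stress response. Atf4 read 121, 120 and 118 FPKM against 114, 119 and 144 FPKM. Ddit3, another of its targets, read 13.7, 13.5 and 12.5 FPKM against 10.8, 10.2 and 10.9 FPKM, lower with PS473 without overlap. The part of Atf4 in the synthetase and amino acid values was not tested. Of the 14 unfolded protein response genes 5 were above 0 and 9 below, at a median of -0.05. Asns, already described among the amino acid genes, was the 1 at an unadjusted p under 0.05, against a share of 0.267% higher over all genes.

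**Figure D4:**
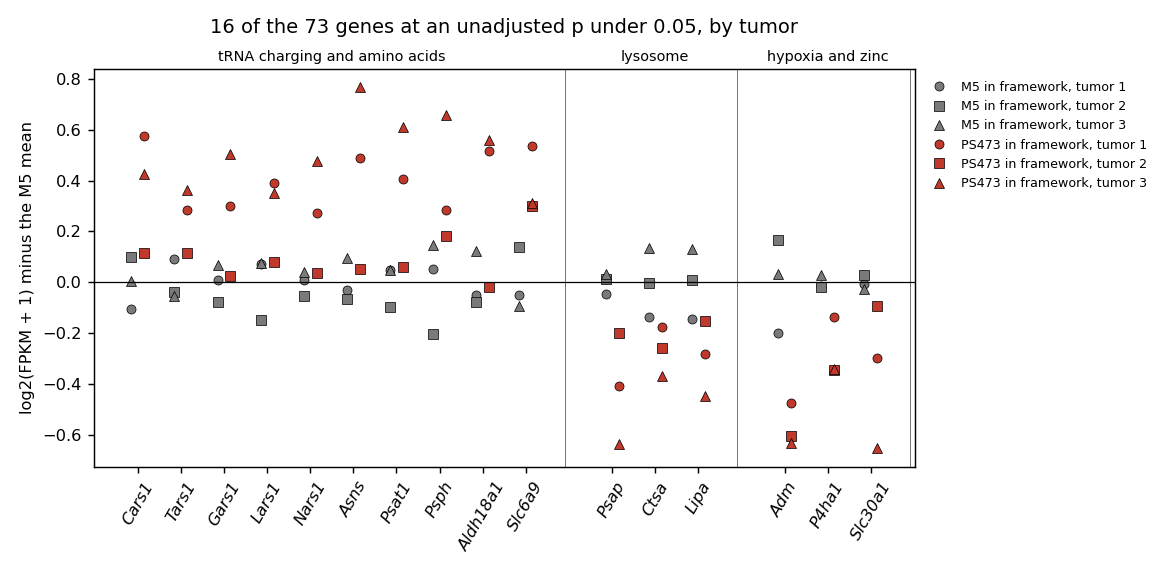
The log2(FPKM + 1) of 16 genes in each tumor, as a difference from the mean of the 3 M5 tumors (y axis), with gray symbols for M5, red for PS473, and circles, squares and triangles for tumors 1, 2 and 3. For Asns PS473 tumors 1 and 3 (55.9 and 67.9 FPKM) lie above the M5 tumors and PS473 tumor 2 (41.0 FPKM) among them, for Slc6a9 all PS473 tumors lie above, and Psap, Ctsa, Lipa, Adm, P4ha1 and Slc30a1 lie below M5 in all 3 PS473 tumors.

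Several of the 40 genes that were lower encode lysosomal proteins, and the list that describes them was again written afterwards. Of 43 lysosomal enzymes and membrane proteins tested, 39 were below 0 and 4 above, at a median of -0.10, where 53.3% of all genes were below 0, and 3 had an unadjusted p under 0.05, where the share of all genes lower at that threshold was 0.324%. Psap, the precursor of the saposins that help break down sphingolipids, read 258, 269 and 272 FPKM with M5 and 201, 232 and 171 FPKM with PS473, at -0.41 (SE 0.15). The framework alone averaged 252 FPKM and PBS 195 FPKM. Lipa, the acid lipase, read 28.4, 31.6 and 34.5 FPKM against 25.7, 28.2 and 22.8 FPKM, at -0.29 (SE 0.11), and Ctsa, a protective carboxypeptidase, 51.4, 56.4 and 62.2 FPKM against 49.9, 47.1 and 43.6 FPKM, at -0.27 (SE 0.11). The most abundant cathepsin, Ctsd, overlapped at 531, 478 and 572 FPKM against 413, 447 and 491 FPKM. Macrophages are rich in lysosomes, and the macrophage list described above also had a lower median with PS473, at -0.45. The part of macrophage content in these values was not tested.

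Stroma and other tissues varied from tumor to tumor more than between the ribozymes. Of 12 endothelial genes 9 were above 0 (median 0.08, and -0.14 without M5 tumor 1, which held the lowest value in 10 of the 12), and Pecam1, an adhesion molecule of vessel walls, read 1.96, 6.18 and 5.95 FPKM with M5 and 4.57, 3.61 and 5.62 FPKM with PS473. Of 17 fibroblast and pericyte genes 13 were above 0 (median 0.14), and Col1a1, the main fibrillar collagen, read 31.3, 29.7 and 29.4 FPKM against 36.7, 107 and 25.4 FPKM, high only in PS473 tumor 2. Without that tumor the median was -0.06. All 6 erythroid genes tested were below 0 (median -1.18), and without PS473 tumor 2 the median was 0.87. The 13 mitochondrially encoded genes had a median of 0.30 with 11 above 0. PS473 tumor 3 held the highest value in 12 of them, against 23.5% of all genes tested, and without that tumor the median was -0.08. The 7 muscle genes tested were all above 0, and Mylpf, a muscle myosin light chain, read 1.73, 1.05 and 1.12 FPKM against 1.77, 2.69 and 2.39 FPKM. Ribosomal protein genes had 8 of 22 above 0 and a median of -0.02. In none of these lists did a gene reach an unadjusted p under 0.05. Skin genes divided evenly, 13 above 0 and 13 below.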

How the data were processed

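RNA from 18 B16F10 tumors, 3 in each of 6 groups, was enriched with oligo(dT) beads and sequenced by the authors. The deposited FPKM values, normalized by the authors for gene length and for the fragments of each library, cover 41079 genes, and 0 columns of tumor values were left unused. The submitters' processing notes name the genome build GRCm39; the aligner and the counting tool are not given in the sources used here. Genes were used by name. Sequences were located in GRCm38 with GENCODE M21. Columns were assigned to groups from the sample labels, and 0 values were identical throughout between any pair of tumors.

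FPKM values were transformed to log2(FPKM + 1). A pseudocount of 1 understates the fold changes of weakly expressed genes. The 12357 genes that averaged 1 FPKM or more across the 18 tumors were fitted with limma 3.58.1 in R 4.3.3 (1 mean per group, moderated with a trend on mean expression), with the contrast PS473 minus M5, Benjamini-Hochberg adjustment over all genes tested, and calls where the adjusted p was under 0.05 and the difference over 2-fold (1 on the log2 scale). The fit was tested on simulated data with known changes. The depth of each library (17210000 to 28400000 fragments) was worked out from the smallest steps in its column: 45.0% to 49.2% of values under 50 fragments were whole numbers of fragments within 0.01, and 97.8% to 98.8% were multiples of 0.25 fragments, so that no model for counts was used for the reported tests. Python 3.11.15 with numpy 2.4.6, scipy 1.17.1, pandas 2.3.3 and matplotlib 3.10.9 was used for the rest.

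Lists were described by the direction of their tested members and by their medians, and no test was run on a list. The members and lists were chosen with earlier results of these data known, and 3 lists (tRNA synthetases, amino acid genes, lysosomal genes) after the values of this comparison were seen. Genes were named by a rule: Cd274 and the defining genes of each list, the genes at an unadjusted p under 0.05 with a 2-fold difference and separate groups, and the member of each list with the smallest p in each direction; the others are identified in the text, and some defining genes are not reported here. Tumors with the same replicate number in both groups did not deviate together in every pair (r of 0.149, -0.032 and 0.133), and no replicate block was used. Alternatives were another pseudocount, other filters on low values and on gene length, quantile and upper-quartile scaling, a fit of 6 tumors, no trend, array weights, a replicate block, a skin covariate, voom on recovered fragments, and each tumor left out in turn.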

Additional observations from a re-analysis of the deposited data

How the results depend on the processing

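No gene was called under any of the alternatives, each tumor left out in turn included. Without a filter on low values, 3 genes (Gm12790, Gm30953 and Serpina1a) had an adjusted p under 0.05 by limma at less than a 2-fold difference in FPKM + 1. The counts at an unadjusted p under 0.05 and 2-fold, 1 higher and 3 lower with PS473, became 2 and 9 with a pseudocount of 0.1, 2 and 6 with voom on recovered fragments, and 0 and 1 with genes of at least 300 bases only, a setting chosen after seeing the data. They were 1 and 5 in a fit of the 6 tumors alone and 13 and 4 with array weights, whose estimation did not converge. Over the fits that left out 1 tumor, 0 to 17 genes were higher and 2 to 29 lower; 17 were higher without PS473 tumor 3 and 29 lower without PS473 tumor 2. With the replicate number as a block the counts stayed at 1 and 3 and 69 genes had an unadjusted p under 0.05; the tumors share a number only. The cause of these shifts was not tested.

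The log2 fold change of Cd274 lay between -0.82 and 0.013 when single tumors were left out. Other genes whose sign turned in such fits were Cd74 (-0.84 to 0.19), Cgas (-0.061 to 0.25), Gzmb (-0.92 to 0.045), Ifih1 (-0.064 to 0.46), Irf7 (-0.25 to 0.70), Isg15 (-0.22 to 0.52), Lck (-0.027 to 0.34), Ly6c2 (-0.13 to 0.95), Psmb10 (-0.0002 to 0.42) and Mki67 (-0.24 to 0.086, and 0.14 with array weights). For these the cause was not tested. Of 612 alternative values of list medians, 15 moved by more than the spread between tumors, 11 of them with 1 tumor left out, and the sign of 22 of the 36 medians turned when a single tumor was left out. With 3 tumors a group and 17210000 to 23650000 fragments, genes on the order of 1 FPKM or under 300 bases rest on few fragments.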
